A study of Homo sapiens with 6 samples.

Results

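ATF4 is the transcription factor at the centre of the integrated stress response, and 10 genes of this response were followed here in SiHa cells, chosen by name from the 58174 genes of the expression table. They comprised 6 stress regulators (ATF4, DDIT3, TRIB3, CHAC1, SESN2 and DDIT4) and 4 genes of amino acid synthesis and transport (ASNS, PSAT1, PHGDH and SLC7A11). SiHa is an established human cell line from a cervical squamous cell carcinoma. The OV-BRCA1 group received the GV230-BRCA1 plasmid by lipofection, the NC group received the GV230 plasmid without BRCA1 in the same way, and mRNA was sequenced 48 h later in 3 samples of each group. Neither group was left without a plasmid, so all 6 samples share the exposure to vector DNA and lipid. The share of cells that took up plasmid is not given in the sources used here, and neither is how the samples of a group, which the study calls biological replicates, were kept separate, so the p-values measure the spread between these samples.

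In the integrated stress response, kinases that sense different stresses phosphorylate the initiation factor eIF2, which slows general protein synthesis while the ATF4 mRNA is translated more. ATF4 then binds C/EBP-ATF response elements together with C/EBP proteins and other bZIP factors and switches on genes for amino acid supply, redox balance and, under lasting stress, cell death. The protein level and the activity of ATF4 are set largely by translation, which sequencing of mRNA does not measure. In tumor cells this response can support growth when amino acids or protein folding become limiting, although not every gene in it does.

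The promoters below are shown because they hold the C/EBP-ATF response element, the DNA letters to which ATF4 binds at its targets. The element was searched as TGATGNAA on both strands from 250 bases before to 50 bases after the RefSeq start sites (GRCh38.p14), and the search returned matches in 2 of the 14 windows of these genes, 1 in ASNS and 1 in CHAC1 (9 genes have a window, all but SLC7A11). Of all 35116 RefSeq promoter windows of this length, 1270 (3.62%) held the same letters. The ASNS stretch (chr7:97872409-97872558, minus strand) runs from 150 bases to 1 base before the start site, and the CHAC1 stretch (chr15:40953221-40953370, plus strand) from 250 to 101 bases before it. Capitals mark the match, which lies in the opposite orientation in CHAC1.
ASNS: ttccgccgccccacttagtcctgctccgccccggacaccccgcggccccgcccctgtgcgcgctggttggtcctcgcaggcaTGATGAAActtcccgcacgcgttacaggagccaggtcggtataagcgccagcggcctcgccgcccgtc
CHAC1: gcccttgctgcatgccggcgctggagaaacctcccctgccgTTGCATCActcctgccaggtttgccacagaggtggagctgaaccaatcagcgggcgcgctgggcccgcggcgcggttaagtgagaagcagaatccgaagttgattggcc
A match is a description of these letters and not of binding. The ER stress element, searched on both strands as CCAAT followed after 9 bases of any kind by CCACG, had a match in 27 of all windows (0.0769%) and in 0 of the 14 windows of these genes.

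The values are FPKM, the fragments of a transcript scaled to its length and to the mapped fragments of the sample, summed over the transcripts of each gene. Depth was estimated from the low values at 14.27 to 16.35 M fragments per OV-BRCA1 sample and 16.17 to 19.98 M per NC sample. The log2 values of samples correlated at r = 0.985 to 0.986 within a group and 0.95 to 0.955 between groups, a description across genes. BRCA1 was read at 35.7, 40.8 and 34.9 FPKM in the OV-BRCA1 samples and at 20.1, 14.9 and 21.7 FPKM in the NC samples, a 1.97-fold difference in the direction of the labels (adjusted p = 0.00373). Among markers of squamous epithelium, KRT17 (953 to 1442 FPKM), KRT8 and KRT18 were abundant, whereas 5 of the 10 markers, KRT5, KRT14, TP63, KRT19 and CDH1, were below 1 FPKM in every sample. The summed squamous markers were 1594 to 1742 FPKM in the OV-BRCA1 group and 1933 to 1977 FPKM in the NC group, a sum set by KRT17 (1033 against 1434 FPKM), whereas KRT8, KRT18 and EPCAM were higher in the OV-BRCA1 group. All 6 fibroblast markers were below 1 FPKM in every sample (sums of 0.033 to 0.464 FPKM), the 4 endothelial markers summed to 0.629 to 1.45 FPKM, and the defining immune marker PTPRC was listed at 0 in every sample. The 6 immune markers summed to 31.3 to 37.2 FPKM against 22.2 to 24.0 FPKM, made up almost wholly of CD68, which was higher (26.3 against 3.43 FPKM, adjusted p = 9.75e-05 by limma), and CD14, which was lower (7.79 against 19.4 FPKM, adjusted p = 5.94e-04). The part of these marker differences in the results below was not tested. In such bulk samples, a change in the cells that carry an mRNA and a change in its amount per cell cannot be told apart.

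Of the 6 stress regulators, 4 were higher in the OV-BRCA1 group, namely ATF4, DDIT3, TRIB3 and SESN2, DDIT4 was lower, and CHAC1 did not pass the test. Of the 4 amino acid genes, SLC7A11 and ASNS were higher, PHGDH was lower and PSAT1 did not pass the test. The test was limma's moderated test on log2(FPKM + 1) across 16321 genes with Benjamini-Hochberg adjusted p below 0.05, by which 16.4% of all genes tested were higher and 18.9% lower. Thus 6 of the 10 genes were higher and 2 lower. For 8 of the 10 genes every sample of one group lay above every sample of the other, beside 50.8% of all genes tested. The median log2 fold change was 0.49 for the stress regulators and 0.27 for the amino acid genes, beside −0.04 for all genes tested, and the difference between these medians was not tested. The screening criterion of the study also asks for an absolute log2 fold change above 1. By it, 0 of the 10 genes were differentially expressed (DEGs), and 2.89% of all genes tested were upregulated and 1.1% downregulated. The study applied this criterion to a negative binomial test. Here it was applied to limma on log2(FPKM + 1), so the DEGs can differ from those of the study. All 10 genes had at least 1.85 FPKM in every sample, so none entered the test through the higher group alone.

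**Figure D1:**
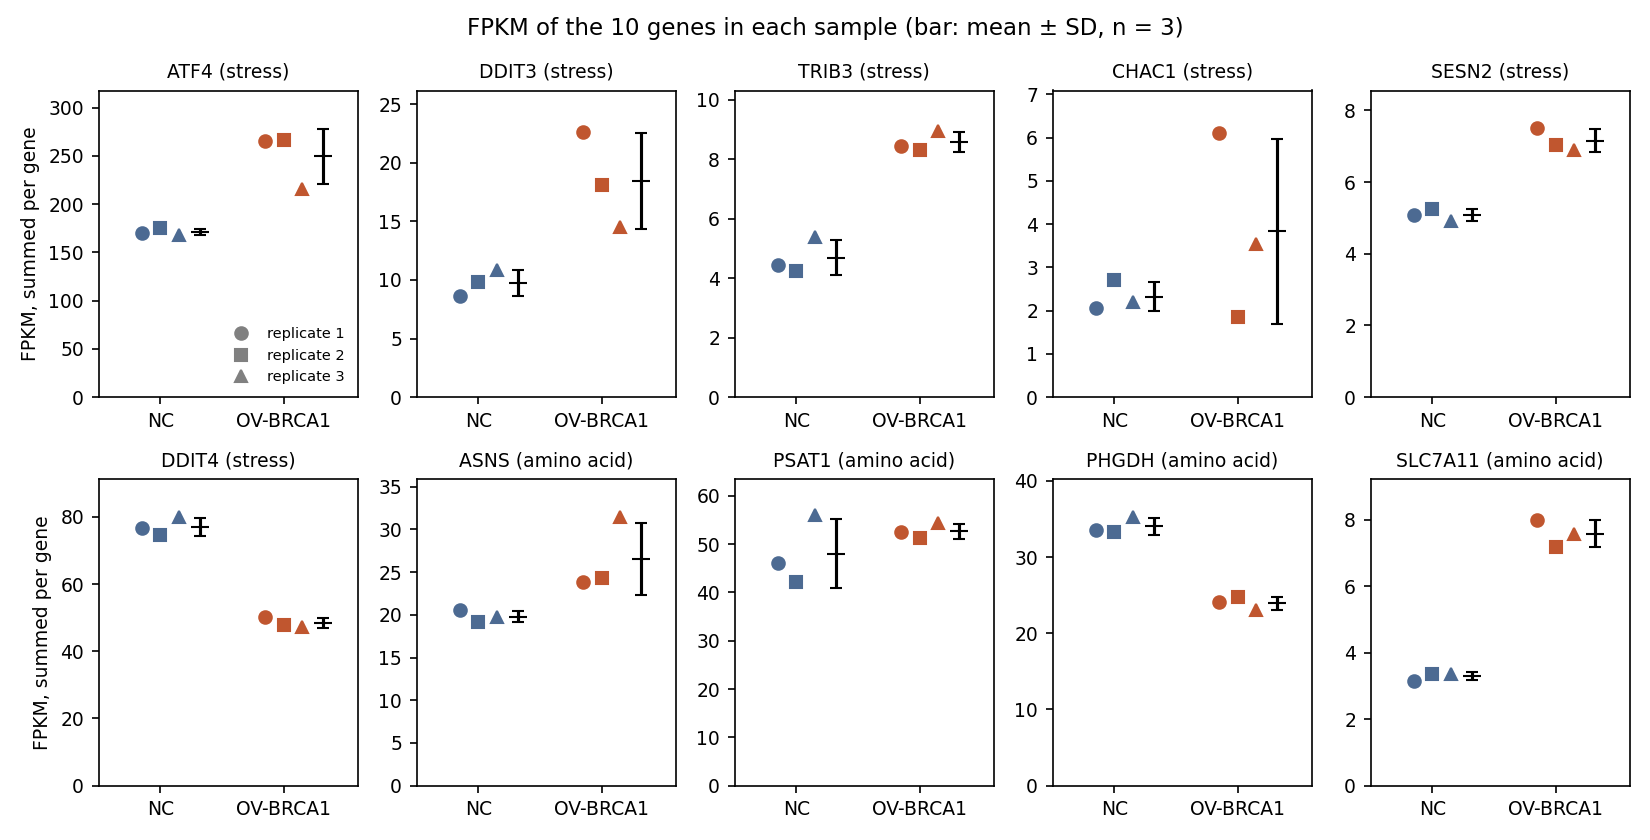
FPKM summed per gene (linear axes from 0) for the 10 genes in the 3 NC samples (blue) and the 3 OV-BRCA1 samples (orange), with a symbol for each replicate number and a bar for the mean ± SD (n = 3). The samples of the groups lie apart for ATF4, DDIT3, TRIB3, SESN2, ASNS and SLC7A11, higher in OV-BRCA1, and for DDIT4 and PHGDH, higher in NC, and overlap for CHAC1 and PSAT1.

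ATF4 itself (chr22:39519695-39522685, plus strand) was the most abundant of the 10 genes. It was read at 265, 267 and 216 FPKM in OV-BRCA1 samples 1 to 3 and at 170, 175 and 168 FPKM in NC samples 1 to 3. All OV-BRCA1 samples lay above all NC samples, and OV-BRCA1 sample 3 was the lowest of its group. The means were 249 ± 28.7 and 171 ± 3.49 FPKM (SD, n = 3), a 1.46-fold difference, with a log2 fold change of 0.53 (SE 0.087, adjusted p = 0.00506 by limma).

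The size of this difference depended on how the fragments were divided among the 3 annotated ATF4 transcripts. ATF4-202 is the shortest at 1419 bases, and it held 86.9% and 86.3% of the summed FPKM in OV-BRCA1 samples 1 and 2. In OV-BRCA1 sample 3 its share was 19.4%, and in the NC samples 12.8%, 14.7% and 11.5%. ATF4-201 (2019 bases) and ATF4-203 (1910 bases) held the rest. The value of ATF4-203 in OV-BRCA1 samples 1 and 2 was only 0.38 and 0.31 FPKM, whereas it was 77.0 FPKM in OV-BRCA1 sample 3 and 42.8 to 44.4 FPKM in the NC samples. The division therefore set OV-BRCA1 samples 1 and 2 apart from the other 4 samples, including the third of their own group. The same number of fragments gives a higher FPKM when placed on a shorter transcript. Each transcript's FPKM was therefore also multiplied by its length in kilobases and then summed, which gives FPM, fragments scaled to the mapped fragments of the sample but not to length. In FPM, ATF4 was at 397, 400 and 403 in the OV-BRCA1 samples and 325, 333 and 324 in the NC samples. On this scale the OV-BRCA1 samples lay together, and the log2 fold change was 0.29 (SE 0.026, adjusted p = 4.62e-04 by limma). On the most abundant transcript alone it was 2.51 and did not pass the test (adjusted p = 0.0641). The 4 annotated ATF4 pseudogenes, which could share fragments with ATF4, had group means of at most 1.54 FPKM.

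**Figure D2:**
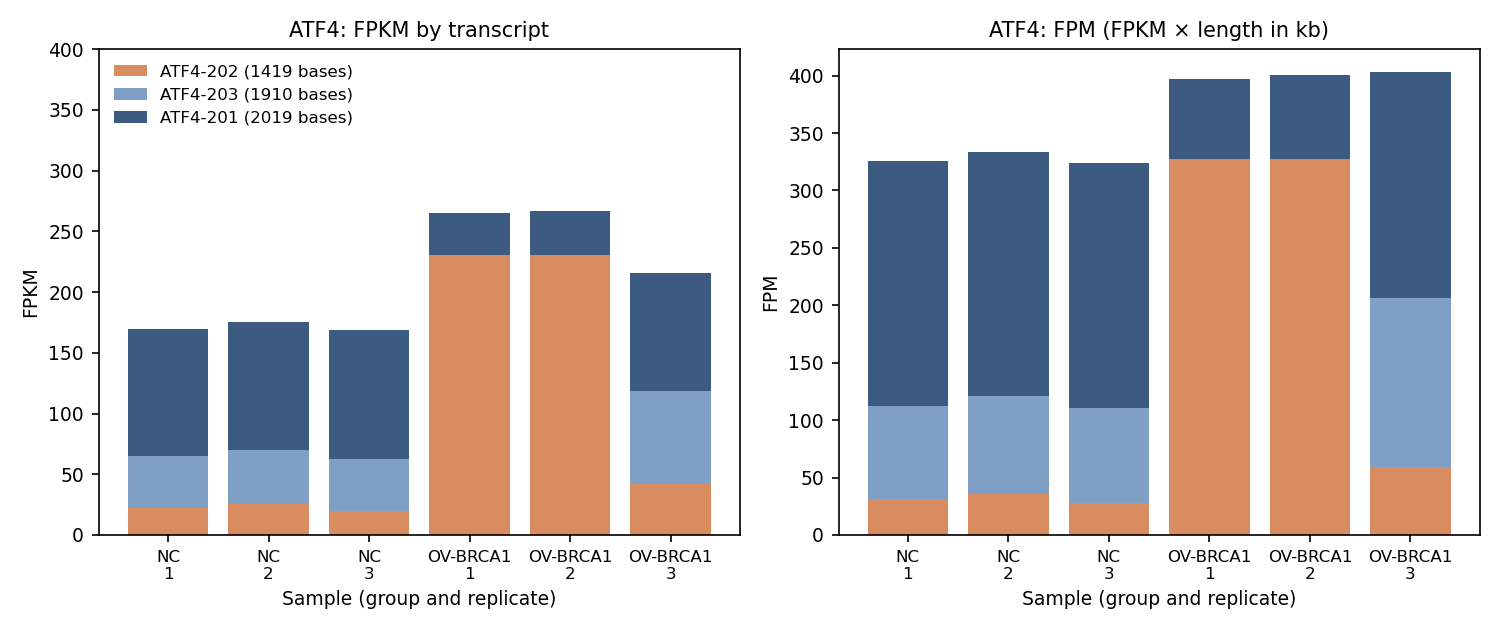
Stacked bars of the 3 ATF4 transcripts in each of the 6 samples, in FPKM on the left and in FPM on the right (linear axes from 0). ATF4-202 fills most of the bar in OV-BRCA1 samples 1 and 2 only, and the summed height in the OV-BRCA1 group ranges from 216 to 267 FPKM on the left but from 397 to 403 FPM on the right.

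DDIT3 (chr12:57516588-57521737, minus strand) encodes CHOP, a bZIP factor that ATF4 induces and that promotes cell death in lasting endoplasmic reticulum (ER) stress. Its values were 22.6, 18.1 and 14.5 FPKM in the OV-BRCA1 samples and 8.65, 9.78 and 10.8 FPKM in the NC samples. The groups did not overlap, although the OV-BRCA1 samples were spread more widely than for most of the 10 genes. The means were 18.4 ± 4.08 and 9.75 ± 1.08 FPKM (SD, n = 3), a 1.89-fold difference, and the log2 fold change was 0.84 (SE 0.164, adjusted p = 0.0099 by limma). It was the same in FPM, 0.84, and 1.55 on the most abundant transcript, past the DEG criterion (adjusted p = 0.0114 by limma). DDIT3 shares 982 bases with MARS and 1028 bases with MBD6 on the opposite strand. Use of strand in the counting is not given in the sources used here, so fragments from the shared bases cannot be told apart; MARS was at 46.0 and 43.3 FPKM in the OV-BRCA1 and NC groups and MBD6 at 19.8 and 16.4 FPKM.

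TRIB3 (chr20:362835-397559, plus strand) encodes a pseudokinase induced by ATF4 and CHOP that inhibits AKT and restrains ATF4 itself. It was at 8.45, 8.32 and 8.97 FPKM in the OV-BRCA1 samples and at 4.46, 4.25 and 5.38 FPKM in the NC samples. Its OV-BRCA1 samples lay close together and all above the NC samples. The means were 8.58 ± 0.341 and 4.70 ± 0.597 FPKM (SD, n = 3), and TRIB3 rose 1.83-fold with a log2 fold change of 0.75 (SE 0.095, adjusted p = 0.00186 by limma).

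SESN2 (chr1:28259527-28282491, plus strand) encodes Sestrin 2, a leucine sensor that inhibits mTORC1 and is induced by ATF4, p53 and NRF2. SESN2 was at 7.51, 7.04 and 6.90 FPKM against 5.08, 5.24 and 4.90 FPKM, again without overlap between groups. With means of 7.15 ± 0.319 and 5.07 ± 0.169 FPKM (SD, n = 3), it rose 1.41-fold (log2 fold change 0.42, SE 0.07, adjusted p = 0.00531 by limma). It has a single annotated transcript, so no division between transcripts enters its value.

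CHAC1 (chr15:40952962-40956519, plus strand) encodes an enzyme that degrades glutathione and is among the most inducible ATF4 targets. It was at 6.11, 1.85 and 3.54 FPKM in the OV-BRCA1 samples and at 2.06, 2.71 and 2.20 FPKM in the NC samples. OV-BRCA1 sample 1 was the highest of all 6 samples and OV-BRCA1 sample 2 the lowest. The groups overlapped, and the log2 fold change of 0.45 had a 95% interval from −0.32 to 1.21 (adjusted p = 0.317 by limma). Leaving out OV-BRCA1 sample 1 gave 0.12 (adjusted p = 0.721), and leaving out OV-BRCA1 sample 2 gave 0.78 (adjusted p = 0.0495). An estimated 47 to 164 fragments per sample stood behind these values, fewer than for any other of the 10 genes.

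DDIT4 (chr10:72273920-72276036, plus strand) encodes REDD1, an inhibitor of mTORC1 that answers to hypoxia and glucocorticoids besides ATF4. It was the only stress regulator lower in the OV-BRCA1 group, at 50.1, 47.7 and 47.3 FPKM against 76.6, 74.6 and 79.8 FPKM in the NC group. The samples within each group lay close together and the groups were far apart. The means were 48.4 ± 1.49 and 77.0 ± 2.63 FPKM (SD, n = 3), 1.59-fold higher in NC, with a log2 fold change of −0.66 (SE 0.05, adjusted p = 2.55e-04 by limma). In FPM it was −0.65. SESN2 and DDIT4, which both act on mTORC1, thus lay on opposite sides.

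Among the amino acid genes, SLC7A11 (chr4:138164097-138242349, minus strand) had the largest log2 fold change of all 10 genes in FPKM. It encodes xCT, the cystine importer that supplies cysteine for glutathione and protects from ferroptosis, and is a target of both ATF4 and NRF2. Its values were 7.99, 7.17 and 7.57 FPKM in the OV-BRCA1 samples and 3.15, 3.37 and 3.35 FPKM in the NC samples. Every OV-BRCA1 sample was above every NC sample by a wide margin. The means of 7.58 ± 0.411 and 3.29 ± 0.118 FPKM (SD, n = 3) differed 2.3-fold, while the log2 fold change on the log2(FPKM + 1) scale, which understates the change of low genes, was 0.999 (SE 0.074, adjusted p = 2.47e-04 by limma), just under the limit of the DEG criterion. It passed that limit with a pseudocount of 0.1 (1.18), in FPM (1.15), with median-of-ratios scaling (1.03), and without OV-BRCA1 sample 2 (1.03) or NC sample 2 or 3 (1.01 each), so that 1 of the 10 genes was then an upregulated DEG. An antisense gene, SLC7A11-AS1, shares 14081 bases with it and had means of 0.253 and 0.103 FPKM.

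ASNS, asparagine synthetase (chr7:97852118-97872542, minus strand), carries the response element printed above. It was at 23.8, 24.4 and 31.4 FPKM in the OV-BRCA1 samples and at 20.5, 19.2 and 19.7 FPKM in the NC samples. The groups did not overlap, and OV-BRCA1 sample 3 stood above the other samples. The means were 26.5 ± 4.25 and 19.8 ± 0.678 FPKM (SD, n = 3), a 1.34-fold difference with a log2 fold change of 0.39 (SE 0.111, adjusted p = 0.0353 by limma). The call was lost without the filter on low values (adjusted p = 0.0792), with the replicate number as a block (0.0576), on the most abundant transcript (0.954) and without NC sample 1, 2 or 3 (0.0706, 0.0946 and 0.088). ASNS has 17 annotated transcripts, and their division differed between samples of a group: ASNS-209 held 52.7% of the FPKM in OV-BRCA1 sample 1 and was at 0 in OV-BRCA1 samples 2 and 3. In FPM, ASNS was at 38.4, 41.0 and 41.8 against 31.7, 32 and 30.5, with a log2 fold change of 0.35 (SE 0.053, adjusted p = 0.00329 by limma).

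The remaining amino acid members, PHGDH and PSAT1, catalyse successive steps of serine synthesis from a glycolytic intermediate. PHGDH (chr1:119648411-119744226, plus strand), the entry enzyme, was lower in the OV-BRCA1 group, at 24.1, 24.7 and 23.1 FPKM against 33.5, 33.3 and 35.3 FPKM. The groups did not overlap. The means were 24.0 ± 0.841 and 34.1 ± 1.10 FPKM (SD, n = 3), 1.42-fold higher in NC, with a log2 fold change of −0.49 (SE 0.054, adjusted p = 0.00117 by limma). Its most abundant transcript, PHGDH-201, is annotated as a retained intron and held 63.8% to 77.5% of the FPKM in each sample. The gene total thus does not stand for coding mRNA alone. PHGDH-202, its most abundant coding transcript, was at 2.94, 4.14 and 2.98 FPKM in OV-BRCA1 and 4.77, 4.57 and 2.92 FPKM in NC. On this coding transcript the groups overlapped, and it was not tested alone.

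PSAT1 (chr9:78297143-78330093, plus strand), the aminotransferase that acts next, was at 52.5, 51.3 and 54.3 FPKM in the OV-BRCA1 samples and at 46.0, 42.2 and 55.9 FPKM in the NC samples. NC sample 3 was the highest of all, so the groups overlapped, and the log2 fold change of 0.14 (95% interval −0.11 to 0.39) did not pass the test (adjusted p = 0.339 by limma). In that sample, 51.8% of the FPKM lay on the shorter PSAT1-201 (1411 bases), against 1.3% to 2.2% in the other 5 samples, where nearly all lay on PSAT1-202 (2188 bases). In FPM, PSAT1 was at 114, 111 and 118 in the OV-BRCA1 samples and at 99.97, 91.7 and 99.8 in the NC samples. These did not overlap, and the log2 fold change of 0.24 (SE 0.048) passed the test (adjusted p = 0.0101 by limma), as did that of 0.25 in FPKM without NC sample 3 (adjusted p = 0.0409). In FPM, where 19.5% of all genes tested were higher and 22.1% lower, the counts for the 10 genes were 7 higher, 2 lower and 1 that did not pass, with 3 of the 4 amino acid genes higher.

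The kinases upstream of ATF4 were examined next. Of 7 genes for the eIF2 kinases and their activators, 2 were higher, EIF2AK2 and EIF2AK3, and 0 were lower, and the median log2 fold change was −0.01. EIF2AK2, the interferon-induced kinase PKR that senses double-stranded RNA, was at 29.1, 29.4 and 30.6 FPKM against 12.9, 12.9 and 14.4 FPKM (2.21-fold, log2 fold change 1.09, adjusted p = 1.01e-04 by limma) and was an upregulated DEG. EIF2AK3, the ER stress kinase PERK, was at 6.00, 6.26 and 7.06 FPKM against 4.55, 4.73 and 4.41 FPKM (log2 fold change 0.42, adjusted p = 0.0103). The groups did not overlap for either kinase. The other members did not pass the test: EIF2AK1 (HRI), EIF2AK4 (GCN2, the sensor of uncharged tRNA) and its activator GCN1 each had a log2 fold change of −0.01, with 95% intervals of −0.16 to 0.14, −0.24 to 0.22 and −0.13 to 0.11. The mitochondrial relay genes OMA1 and DELE1 had −0.24 (adjusted p = 0.183) and 0.01 (adjusted p = 0.896). The sign of these near-zero values, OMA1 aside, turned under other processing, and DELE1 passed the test in the opposite direction on its most abundant transcript. Phosphorylation, by which these kinases are activated, was not measured.

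Of 10 genes for eIF2, its exchange factor eIF2B and its phosphatases, 3 were higher, 1 was lower and 6 did not pass the test (median 0.08). EIF2S2, a subunit of eIF2, rose from 93.5 ± 1.71 to 119 ± 1.34 FPKM (SD, n = 3, log2 fold change 0.35, adjusted p = 0.00131 by limma), and the other higher genes were EIF2S3 (0.20) and PPP1R15A (0.15). PPP1R15A encodes GADD34, the stress-induced phosphatase subunit that closes the loop from ATF4 back to eIF2. The call of PPP1R15A was lost in 8 of 13 alternatives (adjusted p = 0.0545 to 0.0931), among them each of the 6 that leave out a sample. EIF2B1 was lower (−0.20, adjusted p = 0.0406), a call also lost in 8 of 13 alternatives (adjusted p = 0.08 to 0.104), among them every sample left out but OV-BRCA1 sample 2. In FPM, 5 genes of this list were higher and 1 was lower.

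Among 9 bZIP factors that pair with ATF4 or act beside it, 1 was higher, 3 were lower and 5 did not pass the test (median 0.08). ATF3, a stress-induced repressor that ATF4 activates, was at 39.3, 30.4 and 24.1 FPKM in the OV-BRCA1 samples and at 73.1, 71.0 and 78.0 FPKM in the NC samples. It was far lower in every OV-BRCA1 sample and was a downregulated DEG (log2 fold change −1.24, adjusted p = 0.00226 by limma). ATF5, a close relative of ATF4 with similar translational control, moved the other way, at 43.8, 45.7 and 44.3 FPKM against 29.6, 28.2 and 31.7 FPKM (log2 fold change 0.57, adjusted p = 9.09e-04). JDP2 (−0.72, adjusted p = 0.00114) and CEBPD (−0.23, adjusted p = 0.0277) were lower. JDP2 did not pass on its most abundant transcript (adjusted p = 0.0572), and CEBPD did not pass when any sample but OV-BRCA1 sample 1 was left out (adjusted p = 0.0566 to 0.0798). CEBPA (0.33), CEBPB (0.06), CEBPG (0.14), NFE2L1 (0.73, adjusted p = 0.132) and NFE2L2 (0.08) did not pass the test, although CEBPA did in FPM and by the median of ratios (adjusted p = 0.0404 and 0.0476). The value of NFE2L1 rests on NC sample 2 (14.1 FPKM, against 31.7 and 35.7 in the other NC samples), without which it was 0.33.

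In a list of 16 further stress targets, 14 could be tested, of which 6 were higher, 2 lower and 6 did not pass the test (median 0.27); 4 were upregulated DEGs. In FPM, 9 were higher, 3 lower and 2 did not pass. ADM2, counted among the higher genes, reached the filter only through the OV-BRCA1 group. STC2, a secreted glycoprotein induced by ER stress, had the largest change, from 5.23, 4.28 and 4.75 FPKM in the NC samples to 24.0, 24.4 and 24.0 FPKM in the OV-BRCA1 samples (log2 fold change 2.13, adjusted p = 1.36e-05 by limma). GADD45A, a growth arrest gene, was at 33.9, 37.4 and 35.0 FPKM against 16.1, 15.8 and 13.4 FPKM (1.18, adjusted p = 2.07e-04). GDF15, a secreted stress cytokine, was at 5.47, 5.99 and 5.20 FPKM against 1.16, 1.93 and 1.93 FPKM (1.30, adjusted p = 0.00108). PMAIP1, the cell death factor NOXA, was named after its values were seen as the last of the 4 DEGs (1.99, adjusted p = 0.0134). SQSTM1, the autophagy receptor p62, rose by less, from 463 ± 13.0 to 604 ± 12.4 FPKM (SD, n = 3, log2 fold change 0.38). The lower genes, also named after their values were seen, were NUPR1 (−0.66) and BBC3 (−0.34). FGF21 and INHBE did not reach 0.5 FPKM in any sample.

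Genes of amino acid synthesis other than the 3 above were divided: of 14 listed and 12 tested, 3 were higher, 4 lower and 5 did not pass the test (median 0.17). SHMT1, the cytosolic enzyme that makes glycine from serine, was at 31.0, 29.9 and 29.4 FPKM against 49.4, 48.0 and 45.8 FPKM (log2 fold change −0.65, adjusted p = 3.36e-04 by limma), but its most abundant transcript alone had 0.93 and did not pass (adjusted p = 0.66). GOT1, the aspartate aminotransferase, was also lower (−0.43, adjusted p = 0.00184), as was PCK2 (−0.58, adjusted p = 0.00502), whose difference shrank to −0.20 in FPM (adjusted p = 0.238). ALDH18A1, which opens proline synthesis, was higher (0.33, adjusted p = 0.00348). Chosen after their values were seen, the other higher genes were the mitochondrial folate enzyme MTHFD2 (0.93, adjusted p = 0.0097) and the alanine aminotransferase GPT2 (0.75, adjusted p = 0.0107).

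Of 12 amino acid transporters other than SLC7A11, 11 were tested, with 3 higher, 1 lower and 7 that did not pass the test (median 0.21); in FPM 5 were higher and 1 was lower. SLC38A2, a carrier of neutral amino acids, was at 415, 423 and 441 FPKM against 360, 362 and 377 FPKM (log2 fold change 0.22, adjusted p = 0.00963 by limma). SLC7A1 (0.21) and SLC6A9 (0.25, adjusted p = 0.0485) were higher, and SLC7A5, the large neutral amino acid carrier LAT1, was lower (−0.15, adjusted p = 0.022). Of 13 alternatives, SLC6A9 did not pass in 9 (adjusted p = 0.0724 to 0.129), including every sample left out but NC sample 1. SLC7A1 did not pass in 7 (adjusted p = 0.0536 to 0.0767), including every sample left out but OV-BRCA1 sample 3, and SLC7A5 in 6 (adjusted p = 0.056 to 0.0702), including OV-BRCA1 samples 2 and 3 and NC samples 1 and 3 left out in turn. Larger differences among genes that did not pass, named after their values were seen, were SLC7A8 (−0.47, adjusted p = 0.0878), SLC1A5 (0.40, adjusted p = 0.117, but 0.48 and adjusted p = 6.9e-04 in FPM) and SLC43A1 (0.37, adjusted p = 0.137).

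Of 14 genes for aminoacyl-tRNA synthetases and tRNA export, 3 were higher, 1 was lower and 10 did not pass the test (median 0.11). WARS, a synthetase that interferon also induces, stood apart at 561, 446 and 345 FPKM against 77.8, 80.8 and 92.1 FPKM (log2 fold change 2.39, adjusted p = 2.24e-04 by limma). TARS (0.39) and XPOT (0.22) were higher by less, and AARS was lower (−0.21). On the most abundant transcript WARS and TARS did not pass (adjusted p = 0.0533 and 0.831), and XPOT lost its call in 6 of 13 alternatives (adjusted p = 0.0518 to 0.0737), among them every sample left out but OV-BRCA1 sample 3. In FPM, 5 genes of this list were higher and 3 lower.

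PERK and ATF4 form a branch of the unfolded protein response, the answer of cells to ER stress, and the other branches run through the sensors IRE1 and ATF6. ER chaperones, folding enzymes and these sensors were counted for comparison. Of 19 genes, 17 were higher, 1 was lower and 1 did not pass the test, with a median log2 fold change of 0.69 and 7 upregulated DEGs. HSPA5, the chaperone BiP, was at 362, 356 and 362 FPKM against 137, 137 and 141 FPKM (log2 fold change 1.37, adjusted p = 4.72e-06 by limma). PDIA4 (1.18), DNAJB9 (1.5) and CALR (0.82) were likewise higher in every OV-BRCA1 sample than in any NC sample. SYVN1 was the lower gene (−0.56) and HERPUD1 the gene that did not pass (0.08), both named after their values were seen.

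**Figure D3:**
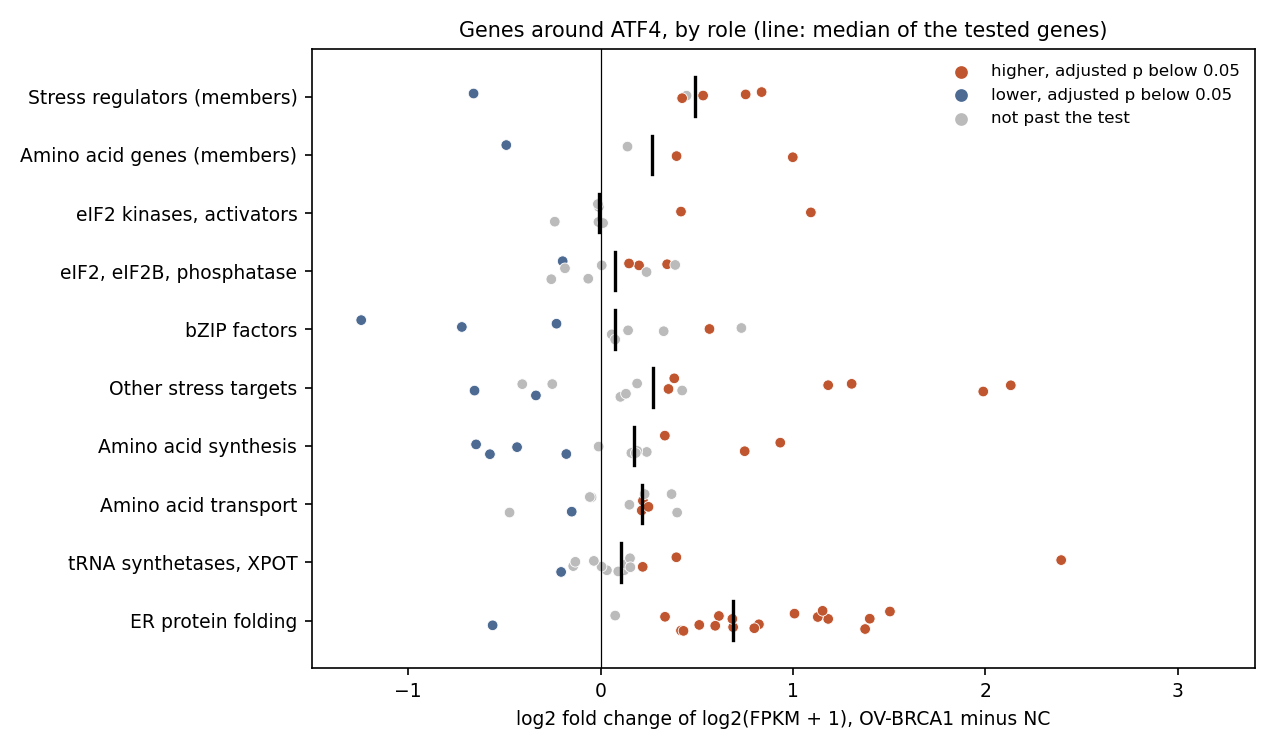
Log2 fold change on the log2(FPKM + 1) scale, OV-BRCA1 minus NC, of each tested gene (points) in 10 lists ordered by role, with a line at the median of each list; colour shows adjusted p below 0.05, higher (orange) or lower (blue), and grey genes that did not pass. The ER protein folding list has its median at 0.69 with 17 genes higher. The list of eIF2 kinases and their activators has its median at −0.01 with 2 of 7 genes higher. Among the bZIP factors and amino acid synthesis genes, genes on both sides of 0 passed the test.

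Relatives of the 10 genes were read as well. Of 6 paralogs, SESN3 and TRIB2 were too low to be tested. TRIB1 was lower (log2 fold change −0.38, adjusted p = 0.00389 by limma) where TRIB3 rose, and SESN1 had −0.42 without passing the test (adjusted p = 0.142, but 0.0143 without NC sample 1). CHAC2, which also degrades glutathione, was higher at 15.3, 14.5 and 14.7 FPKM against 9.54, 9.30 and 10.3 FPKM (0.56, adjusted p = 0.00128). DDIT4L, the relative of DDIT4, was at 1.03, 0.91 and 0.99 FPKM against 0.33, 0.27 and 0.63 FPKM. It reached the filter only through the OV-BRCA1 group, so its call (0.49, adjusted p = 0.02) is no independent support, and the call was lost without OV-BRCA1 sample 1 or 3 or NC sample 1 or 2 (adjusted p = 0.0561 to 0.0634).

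SLC7A11 is also a target of NRF2, the factor of the oxidative stress response encoded by NFE2L2, and 7 NRF2 targets including SLC7A11 were listed for that reason. In this list 3 were higher, 1 was lower and 3 did not pass the test (median 0.56). GCLM, a subunit of the enzyme that opens glutathione synthesis, was at 11.3, 10.9 and 10.9 FPKM against 6.93, 6.80 and 7.12 FPKM (log2 fold change 0.60, adjusted p = 8.02e-04 by limma), and SRXN1 was also higher (0.56, adjusted p = 0.00207). HMOX1, heme oxygenase 1, was lower at 29, 28.5 and 28.7 FPKM against 38.6, 38.1 and 37.8 FPKM (−0.40, adjusted p = 0.00121). NFE2L2 itself was at 97.9 FPKM in OV-BRCA1 sample 1 and between 54.6 and 65.4 FPKM in the other 5 samples, and without OV-BRCA1 sample 1 its log2 fold change was −0.20 (adjusted p = 0.0432).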

How the data were processed

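Total RNA of 3 OV-BRCA1 and 3 NC samples was sequenced as mRNA libraries. The authors deposited FPKM values for 199167 transcripts of 58174 genes, which were made from quality-filtered reads. The submitters' processing notes name FastQC, HISAT2 and hg38; the quantification tool, the annotation and the use of strand are not given in the sources used here. FPKM was summed over transcripts per gene, with names and positions from GENCODE 29 (198868 transcripts matched).

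Genes with at least 0.5 FPKM in at least 3 samples (16321) were compared with limma 3.58.1 (R 4.3.3; moderated test with trend, not robust) on log2(FPKM + 1), with Benjamini-Hochberg adjustment over all of them. With 3 samples against 3, an exact permutation test of 1 gene cannot give a two-sided p below 0.1, so none was used. A gene was called at adjusted p below 0.05. Depth was estimated from the value that 1 fragment would have in genes with 1 transcript. Only 28.8% to 32.2% of the low values came within 0.1 of a whole number, so counts were not recovered, and the estimated fragments are approximate. Data were simulated for OV-BRCA1 against NC, with 200 of 16321 genes changed by 1 on the log2 scale. The test found 144 (72%) and called 13 unchanged genes. The simulated noise was normal and independent, and no smaller change was simulated, so these figures do not cover smaller changes.

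The members and lists were chosen with earlier results of these data known. All members, BRCA1, and the tested eIF2 kinase, bZIP and paralog genes are named, and of each other list up to 4 genes with the smallest adjusted p. Alternatives were a pseudocount of 0.1, no filter, scaling by the median of ratios or to nuclear protein-coding genes, the replicate number as a block, the most abundant transcript in place of the sum, and each sample left out. FPM (fragments scaled to the mapped fragments of a sample but not to length: FPKM × length in kilobases, summed over transcripts) was chosen after seeing the data. It uses full annotated lengths and so approximates the fragments behind each value. Promoters were taken from RefSeq (GRCh38.p14), where 9 of 10 members matched. Python 3.11.15 with pandas 2.3.3, numpy 2.4.6 and matplotlib 3.10.9 was used for tables and plots. Of the 6 immune markers, 1 enters only the sum and is not reported here.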

Additional observations from a re-analysis of the deposited data

How the results depend on the processing

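DDIT3, TRIB3, SESN2, DDIT4, PHGDH and SLC7A11 kept their call and direction in all 13 alternatives, ATF4 in 12 and ASNS in 7. CHAC1 passed the test in 1 and PSAT1 in 2. For PHGDH, the alternative on the most abundant transcript reads PHGDH-201, a retained intron. The count of higher amino acid genes (2) was 1 without the filter, with the replicate block and on the most abundant transcript, 3 in FPM, and 1 to 2 with a sample left out. With a sample left out, the median log2 fold change ranged from 0.44 to 0.63 for the stress regulators and from 0.19 to 0.32 for the amino acid genes. On the most abundant transcript, 1685 genes were higher and 1606 lower in place of 2674 and 3090. With a pseudocount of 0.1, 764 genes were upregulated and 516 downregulated DEGs in place of 472 and 179. Of the 48 other named genes, 36 (most abundant transcript) to 48 (pseudocount of 0.1) kept both direction and side of the threshold. The cause of these changes was not tested.

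Signs turned, for SHMT1 and for genes near 0, in median-of-ratios scaling (EIF2AK1 0.03, EIF2AK4 0.02, GCN1 0.03), in FPM (EIF2AK1 0.03, EIF2AK4 0.10, GCN1 0.04, DELE1 −0.16), in scaling to nuclear protein-coding genes (DELE1 −0.02) and on the most abundant transcript (EIF2AK1 0.04, EIF2AK4 0.24, GCN1 0.04, DELE1 −0.53 with adjusted p = 0.0169 by limma, NFE2L2 −0.14, SHMT1 0.93 with adjusted p = 0.66). With a sample left out, EIF2AK1 ranged from −0.04 to 0.05, EIF2AK4 from −0.09 to 0.06, GCN1 from −0.03 to 0.00, DELE1 from −0.02 to 0.07 and NFE2L2 from −0.20 to 0.22. The median of all genes was −0.036, −0.008 by the median of ratios and −0.065 for nuclear protein-coding genes.

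Replicate numbers are shared between groups, but samples with the same number did not deviate together (r = −0.024, 0.025 and 0.014 across genes). Pairs with different numbers had r from −0.046 to 0.032. These values cannot show whether samples with the same number shared a culture, transfection or library batch. With the replicate block, 2159 genes were higher and 2436 lower, and of the 10 genes only ASNS lost its call. The depth is an estimate, and no count test could be run.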
